A study of Mus musculus with 2 samples.

Results

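Pericytes and vascular smooth muscle cells, the mural cells of the kidney, were selected on their measured transcripts in 2 single-cell libraries of the postischemic kidney. Barcodes were kept with 500 to 100000 unique molecular identifiers (UMIs, 1 per captured molecule), 200 or more genes, up to 50% mitochondrial UMIs, and log10 genes divided by log10 UMIs no lower than 0.8. Members were chosen from them by a sum of Rgs5 and Myh11 of at least 3 UMIs, a sum of Cdh5, Pecam1 and Cldn5 (endothelial genes) of at most 2 UMIs, and no Ptprc (leukocyte) UMI. This rule gave 184 of 8468 Cre- barcodes and 191 of 9233 from the library labelled PHDTiEC, or 375 of 17701 in all. The levels of the genes in the rule describe the choice and are no result, and, since the same transcripts chose the cells, neither are the genes that set members apart.

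Mural cells wrap the vessels of the kidney: smooth muscle cells line the arteries and arterioles, pericytes sit on the capillaries, and renin cells occupy the wall of the arteriole that feeds the glomerulus. Smooth muscle cells carry an actin and myosin apparatus that sets vessel tone, while renin cells belong to the same lineage and can exchange the contractile for the secretory state. After injury, pericytes and perivascular fibroblasts are known sources of collagen-producing cells. Mural cells receive signals from the neighbouring endothelium, among them platelet-derived growth factor, Notch ligands and TGF-beta.

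The Cre- library came from 1 Cre- littermate and the other from 1 mouse with Cdh5-CreERT2 and floxed alleles of Phd1, Phd2 and Phd3 (Egln2, Egln1 and Egln3), which encode the oxygen-sensing prolyl hydroxylases that mark hypoxia-inducible factor (HIF) for degradation. Both were male mice of 8 to 10 weeks that had the left renal pedicle clamped for 25 minutes, received 4 tamoxifen injections of 3 mg per mouse every other day, and gave the injured kidney on day 14. The label does not say whether the Cre- littermate carried the floxed alleles. The Cre recombinase is driven by an endothelial promoter, so mural cells are not the cells in which deletion is intended. The kidney was dissociated whole, without a sort. With 1 mouse per genotype there is no replicate check, no p-value is given, and every interval is a 95% interval that covers counting error only.

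Sequencing gave 136004367 UMIs for Cre- and 146758812 for PHDTiEC, with a median of 7414.5 and 7815 UMIs per kept barcode. The libraries shared 27 kept barcode sequences, none of them among members. In barcodes with at least 3 endothelial UMIs and neither mural nor leukocyte UMIs (213 and 333), Egln1 had 74.2 and 170 counts per 1000000 UMIs (CPM) and Egln3 26.7 and 121 CPM, both higher in the library that carries the deletion label, and Egln2 44.9 and 38.6 CPM. In the same barcodes, 31 of 32 HIF target genes were also higher in that library, with a median log2 ratio of 1.31. These targets go the way of the label. Egln1 and Egln3 are themselves on the list of HIF targets and are counted among them. Their levels therefore do not show whether the genes were deleted, and that library is called the library labelled PHDTiEC. PHDTiEC alone is its short form and gives the label only. A transcript that has lost a floxed exon is counted like a whole one.

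Members took a like share of both libraries: 2.17% of the kept barcodes (Clopper-Pearson interval 1.87 to 2.51) of Cre- and 2.07% (1.79 to 2.38) of PHDTiEC. The intervals overlap. Fewer cells of a kind and less efficient release of them from the tissue cannot be told apart in these shares. Rgs5, a regulator of G-protein signalling typical of pericytes and arteriolar muscle, was found in 180 and 180 members, and Myh11, the smooth muscle myosin heavy chain, in 140 and 157. Near the limit of the rule, barcodes with exactly 2 UMIs of Rgs5 and Myh11 numbered 42 and 31, with a median contractile level (Acta2, Tagln and Cnn1 summed) of 0 and 0.158 per 10000 UMIs. Those with exactly 3 numbered 22 and 19, with 5.25 and 5.53 per 10000. Members with 6 or more numbered 138 and 147, with 172 and 198 per 10000.

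The members were divided into ranges. The renin range held members with at least 5 Ren1 UMIs, 26 (14.1%, interval 9.44 to 20.0) of the Cre- members and 33 (17.3%, 12.2 to 23.4) of the PHDTiEC members. The contractile range held the other members with Acta2 (smooth muscle actin), Tagln (transgelin, an actin-binding protein) and Cnn1 (calponin, which restrains the actomyosin ATPase) at 10 or more per 10000 UMIs, 112 (60.9%, 53.4 to 68.0) and 122 (63.9%, 56.6 to 70.7). In both libraries its leading genes against the other members were 1600027J07Rik, Clec18a, Col3a1, Serpinf1, Eln, Cdh11, Col1a2, Ifi27l2a, Bgn and Col14a1, several of them matrix genes that fibroblasts also express, so the range is named by its rule alone. Some of these genes sat in few cells. Of the member UMIs of Col14a1, 27 and 90 lay in the 3 and 14 collagen-rich members described below, against 11 and 4 in all others. Ifi27l2a had 37 and 129 against 34 and 27. The remaining low-contractile range held 46 (25.0%, 18.9 to 31.9) and 36 (18.8%, 13.6 to 25.1). For each range the intervals of both libraries overlap. These are ranges and not cell types: 16 and 9 members lay between 5 and 20 contractile UMIs per 10000, and 10 and 7 had 3 to 7 Ren1 UMIs.

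The low-contractile members go against the mural label. Pdgfrb or Notch3, receptors of mural cells, was found in 12 of 46 and 6 of 36 of them. Their median Rgs5 was 4 and 4 UMIs and their median Myh11 0 and 0. Both genes are in the member rule, so these 2 levels describe the choice. A set of 6 tubular epithelial genes (Epcam, Cdh16, Cdh1, Slc34a1, Umod and Slc12a1) had a median of 26 and 23.5 UMIs per barcode, against 0 and 1 in the contractile range. Spp1, the osteopontin gene of injured tubule, stood at a median of 512 and 475 per 10000 UMIs. Against the other members, their leading genes included Gc, Ubd, Havcr1 (KIM-1, the tubular injury marker), Ccl2, Krt20 and C3 in both libraries. These barcodes were deep, with a median of 26610.5 and 18764.5 UMIs, and they held 52.0% and 31.5% of all member UMIs. They are named here only by their range.

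**Figure D1:**
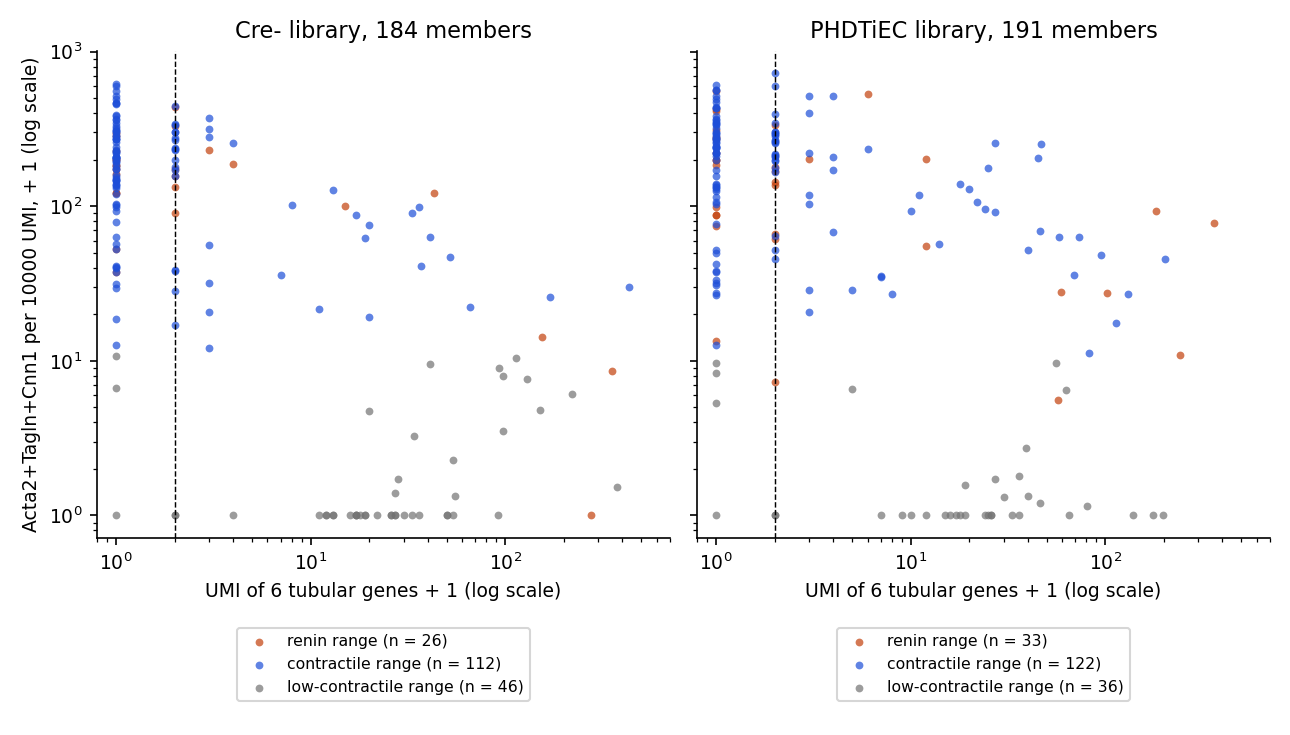
Each point is 1 member barcode, with the UMIs of 6 tubular genes plus 1 on the x axis and the UMIs of Acta2, Tagln and Cnn1 per 10000 plus 1 on the y axis, both on log scales, and the dashed line marks the limit of 1 tubular UMI. The upper left of both panels holds 106 and 107 members with contractile or renin transcripts and at most 1 tubular UMI, and most low-contractile members lie lower right, where tubular UMIs are many and contractile UMIs few.

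A mural core was therefore set apart after these values had been seen: members of the renin or contractile range with at most 1 UMI of the 6 tubular genes. It held 106 of the Cre- members (57.6%, interval 50.1 to 64.8) and 107 of the PHDTiEC members (56.0%, 48.7 to 63.2), with 557675 and 702612 UMIs in all. In it, Acta2 ranged from 1 to 259 UMIs per cell with a median of 56.5 in the Cre- library, and from 0 to 425 with a median of 58 in the other. Myh11 had a median of 11.5 and 11 UMIs and Rgs5 of 18 and 16. The ranges of the libraries overlapped for Acta2, which was absent from a single core cell.

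The core, from which low-contractile members are left out by choice, held few transcripts of 4 genes of capillary pericytes. Cnn1 was found in 67 of 106 and 73 of 107 core cells, against 0.810% and 1.23% of the myeloid barcodes, which should lack it (3211 and 3582 barcodes with Ptprc and at least 3 UMIs of C1qa, C1qb and Lyz2, at median depths of 7965 and 8749.5 UMIs against 4584.5 and 4834 in the core). Cnn1 is one of the 3 genes that set the contractile range, so this describes the choice of the core. Of the genes that mark capillary pericytes, Kcnj8, a subunit of the ATP-sensitive potassium channel, was found in 4 and 11 core cells, its partner subunit Abcc9 in 3 and 10, Higd1b in 9 and 7 and Vtn in 2 and 1, and each of the 4 in at most 0.307% of the myeloid barcodes. Cspg4, the NG2 proteoglycan, was found in 61 of 106 and 69 of 107 core cells and Des, the intermediate filament desmin, in 47 and 46, against 6.14% and 5.92% (Cspg4) and 2.55% and 3.21% (Des) of the myeloid barcodes. Among mural receptors, Notch3, the Notch receptor of arterial muscle, had 137 and 200 UMIs in 70 and 79 core cells, and Pdgfrb, the receptor for platelet-derived growth factor B, had 112 and 142 UMIs in 53 and 49. Of the myeloid barcodes, 5.48% and 6.78% had a Notch3 UMI and 3.21% and 3.18% a Pdgfrb UMI.

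Other cells' markers were present in the core, whose rules limit several of them. The 19 tubular markers had a median of 7.52 and 4.30 UMIs per 10000 (range 0 to 106 and 0 to 191), the 12 myeloid markers 2.23 and 2.47 (0 to 398 and 0 to 339), the 11 endothelial markers 0.894 and 0.714 (0 to 26.5 and 0 to 46.6) and the 10 fibroblast markers 0 and 1.89 (0 to 297 and 0 to 445). Pooled over core cells, the tubular markers made up 9.31 and 17.7 per 10000 UMIs and the fibroblast markers 20.7 and 47.4. Ptprc was at 0 by the member rule, which also limits Cdh5, Pecam1 and Cldn5 of the endothelial markers. The core rule limits Epcam, Cdh16, Cdh1, Slc34a1, Umod and Slc12a1 of the tubular markers. Low totals of these lists therefore partly describe the choice. The tubular genes Pck1, Krt20 and Aqp2 were at 0 in both libraries. The part of these other markers in the differences below was not tested. The median mitochondrial share of core cells was 9.64% for Cre- and 6.65% for PHDTiEC.

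Ren1 encodes renin, the protease that starts the angiotensin cascade (ENSMUSG00000070645, chromosome 1 of GRCm38 from 133350510 to 133360325, forward strand). Ren1 UMIs sat in few members. In the Cre- library 142 members had none, 16 had 1 to 4, and the 26 renin members had from 5 to 360 UMIs with a median of 28.5. In the library labelled PHDTiEC 141 had none, 17 had 1 to 4, and the 33 renin members had from 6 to 157 with a median of 22. The renin members held 98.1% and 97.7% of all member Ren1 UMIs, and a single member held 21.0% and 12.2%. The upper end of the distribution was higher in the Cre- library, with 12 renin members at 50 or more UMIs against 8.

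**Figure D2:**
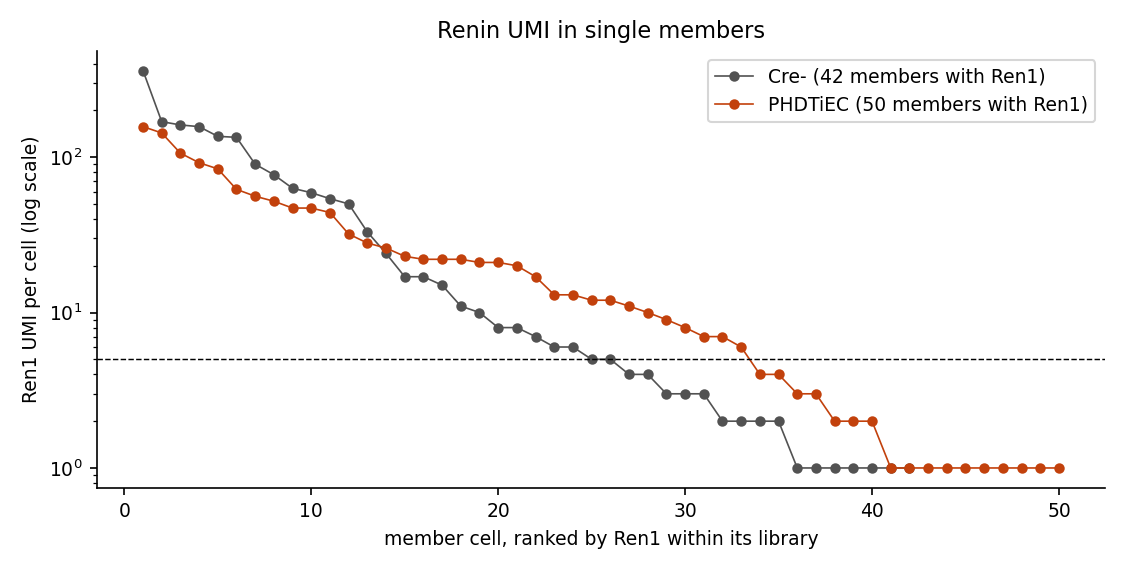
Members with at least 1 Ren1 UMI are ranked within their library on the x axis, with Ren1 UMIs per cell on a log y axis and the dashed line at the limit of 5 UMIs. The Cre- curve starts at 360 UMIs and the PHDTiEC curve at 157, while more PHDTiEC members lie at or above the limit, 33 against 26.

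The share of cells with renin had overlapping intervals, while Ren1 transcripts were fewer in the library labelled PHDTiEC. At least 1 Ren1 UMI was found in 22.8% of members (interval 17 to 29.6) and 26.2% (20.1 to 33.0). Thinned to 2000 UMIs each, with 16 and 16 shallower members left out, the shares were 19.0% and 20.6%. In myeloid barcodes the share was 1.18% (0.839 to 1.62) and 0.865% (0.589 to 1.23). Over all members, Ren1 had 1714 and 1282 UMIs, a log2 ratio of CPM (library labelled PHDTiEC over Cre-) of -0.53. In the mural core it had 864 and 805 UMIs, a log2 ratio of -0.44 (-0.58 to -0.30), and without the top cell of each library -0.33. The lower level did not hold throughout: among members with few tubular, fibroblast and myeloid UMIs the log2 ratio was 0.10. As a mean over cells of all members it was smaller but still negative, -0.26. The libraries also differed in free RNA: Ren1 made up 30.5 and 16.9 CPM of the barcodes with fewer than 100 UMIs. Its part in the difference was not tested.

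The rule for members leaves out part of the renin cells. Members carried 41.5% and 44.9% of the Ren1 UMIs of all kept barcodes, 4129 and 2858. Another 41 and 34 barcodes had 5 or more Ren1 UMIs, of which 29 and 26 met the Rgs5 and Myh11 limit but exceeded the endothelial one, 13 and 9 carried Ptprc, and 6 and 3 had too few Rgs5 and Myh11 UMIs. Barcodes with both mural and endothelial genes (103 and 112, at least 3 UMIs of each kind and no Ptprc) had 5 or more Ren1 UMIs in 23.3% (15.5 to 32.7) and 20.5% (13.5 to 29.2).

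Within the mural core, the renin members shared further genes, ranked here by the smaller of the log2 ratios of both libraries against the other core cells. Akr1b7, an aldo-keto reductase of renin cells, was found in 16 of 19 renin core cells of one library (Cre-) and 17 of 23 of the other. It was also found in 40 of 87 and 31 of 84 core cells outside the renin range. After Ren1 itself, the leading genes were Gm13889, Rasd1 (a Ras-like GTPase), Akr1b7, Ptp4a3 (a phosphatase), Mef2c (a muscle transcription factor), Cebpb, Gng11, Pde3a (a phosphodiesterase that breaks down cyclic AMP) and Gadd45b. Among Cre- cells, Rasd1 stood at 1182 CPM in renin core cells against 532 in the others, and among PHDTiEC cells at 625 against 259 CPM. Ptp4a3 stood at 1193 against 575 and at 721 against 295 CPM. Acta2 had a median of 43 and 49 UMIs over all renin members of the 2 libraries.

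Between libraries, Akr1b7 was lower in the library labelled PHDTiEC under every alternative run. In the core it had 266 UMIs in 56 cells of the Cre- library and 173 UMIs in 48 cells of the other, a log2 ratio of -0.95 (-1.24 to -0.67). Of the 22 genes on the renin cell list, which also holds connexins, adenylyl cyclases and cyclic AMP signalling genes, 15 had at least 20 UMIs in the core. Their log2 ratio was positive in 6 and negative in 9, with 4 intervals under 0 and none over it, against 5.76% under and 10.1% over 0 among all 6714 core genes with at least 20 UMIs, and the median was -0.14, but 0.05 as a mean over cells. Gja4, the connexin 37 gene, had 68 and 50 UMIs (-0.78, -1.33 to -0.23), and Gnas, the stimulatory G-protein subunit upstream of cyclic AMP, 869 and 852 (-0.36, -0.50 to -0.22).

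Promoters of Ren1 and Acta2, which were used to set the ranges, and of Myl9 and Vcl, which hold a CArG box, are shown from RefSeq (GRCm38.p6), each with 250 bases before and 50 after the start site, and capitals mark the motifs searched on both strands: TATAAA, the CArG box, ACGTG and GTGGGAA, a Notch (RBPJ) motif. The last occurs in 6.38% of 32851 promoters of this length and in none of those shown. It occurs in 4 of 29 promoters of the matrix list, 1 of 16 of the renin cell list and 0 of 25 of the contractile list. Tnc, a matrix gene whose promoter is not shown, holds it 3 bases before the start site. TATAAA, the TATA box, occurs in 13.6% of the 32851 promoters and in Ren1 lies 29 bases before the start site. The CArG box, to which serum response factor binds with myocardin in smooth muscle, occurs in 1.63% of them and in 3 of the 25 contractile-list promoters in the table (12%), those of Myl9 (myosin light chain), Vcl (vinculin) and Srf itself. Acta2 held none of the motifs in their exact letters in this window. The CArG box was searched only as CCWWWWWWGG, with W for A or T. The Acta2 window holds ccctatatgg and ccttgtttgg, each a single letter away from that pattern. The other capitals in Vcl mark ACGTG, the core of the HIF-binding element, which occurs in 19.6% of all promoters. No 2 of the matches shown overlap, apart from the CArG box being read on both strands. A match is a description of letters only, and no match says only that these letters are not in this window.
Ren1, chr1:133350424-133350723, forward strand: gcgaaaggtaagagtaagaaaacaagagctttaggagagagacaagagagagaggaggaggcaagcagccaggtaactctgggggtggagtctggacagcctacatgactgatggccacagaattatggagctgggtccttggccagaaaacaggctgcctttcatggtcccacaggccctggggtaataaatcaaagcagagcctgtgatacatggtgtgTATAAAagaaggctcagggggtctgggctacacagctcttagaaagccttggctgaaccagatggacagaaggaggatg
Acta2, chr19:34255324-34255623, reverse strand: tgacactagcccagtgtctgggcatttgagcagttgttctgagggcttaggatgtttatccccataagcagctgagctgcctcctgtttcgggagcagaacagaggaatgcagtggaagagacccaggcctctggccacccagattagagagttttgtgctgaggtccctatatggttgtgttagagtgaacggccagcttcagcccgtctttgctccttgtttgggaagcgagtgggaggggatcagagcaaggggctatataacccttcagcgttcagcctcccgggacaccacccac
Myl9, chr2:156775214-156775513, forward strand: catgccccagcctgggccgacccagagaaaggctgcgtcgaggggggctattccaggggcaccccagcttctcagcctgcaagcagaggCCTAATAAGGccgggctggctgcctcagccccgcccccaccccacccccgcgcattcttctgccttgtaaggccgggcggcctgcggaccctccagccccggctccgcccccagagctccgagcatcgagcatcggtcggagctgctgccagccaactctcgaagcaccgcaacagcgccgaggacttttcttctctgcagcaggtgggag
Vcl, chr14:20929148-20929447, forward strand: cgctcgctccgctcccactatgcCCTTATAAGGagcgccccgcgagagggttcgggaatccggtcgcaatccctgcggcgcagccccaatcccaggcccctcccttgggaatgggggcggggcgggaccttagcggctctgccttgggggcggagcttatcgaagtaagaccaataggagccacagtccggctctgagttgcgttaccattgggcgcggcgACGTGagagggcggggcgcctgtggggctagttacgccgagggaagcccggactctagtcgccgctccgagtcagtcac

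Comparison of the contractile genes depends on which members are summed. Over all members, 27 of the 29 contractile genes with at least 20 UMIs (of 30 on the list) had a positive log2 ratio, with a median of 0.44 against 0.05 over all 11609 genes at that minimum. In the mural core, 15 of 28 were positive and 13 negative, with a median of 0.04 against 0.08 over all 6714 genes. It was -0.04 when mitochondrial and ribosomal genes were left out of the total. That scaling also moved the median of all 3611 core genes with at least 50 UMIs, from 0.07 to -0.02. In the contractile range, 11 of 29 were positive and 18 negative, with a median of -0.18 against 0.09 over all genes at that minimum. The low-contractile members, which carry hardly any contractile UMIs, made up 52.0% of the Cre- and 31.5% of the PHDTiEC member UMIs. None of the 28 reached 2-fold in the core. Of 3611 core genes with at least 50 UMIs, 122 (3.38%) were at least 2-fold higher and 28 (0.775%) at least 2-fold lower in the library labelled PHDTiEC.

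Within the list, single genes differed in opposite directions. Cnn1, Acta2 and Tagln set the contractile range and with it most of the core, so their ratios are a description of cells chosen on them. Cnn1 had 235 and 435 UMIs in the core, a log2 ratio of 0.56 (0.32 to 0.79), and its highest cell reached 24 and 30 UMIs. Tpm1, a tropomyosin, had 1698 and 2528 (0.24, 0.15 to 0.33), and Ppp1r14a, an inhibitor of myosin phosphatase, 206 and 343 (0.40, 0.15 to 0.66). Acta2 had 7612 and 9061 UMIs (-0.08, -0.13 to -0.04, but 0.09 as a mean over cells), and Tagln 5474 and 7096 (0.04, -0.01 to 0.09), so the sign of these abundant genes depended on the scaling. Sncg, gamma-synuclein, had 887 and 646 UMIs (-0.79, -0.94 to -0.64) in 84 and 84 cells, and Rbpms2, an RNA-binding protein of smooth muscle, 115 and 93 (-0.64, -1.05 to -0.23). Actg2, the enteric smooth muscle actin, had 55 and 102 UMIs in 4 and 15 cells, and 36.3% of the PHDTiEC UMIs lay in 1 cell.

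Receptors and channels that set vessel tone had core medians near 0. Of 27 vasoactive receptor and effector genes, 15 reached 20 UMIs, with 6 positive, 9 negative and a median of -0.03, or 0.36 as a mean over cells. Ednra, the endothelin A receptor, had 66 and 83 UMIs, a log2 ratio of -0.0027 with an interval of -0.49 to 0.49, while Ptger3, a prostaglandin E receptor, had 24 and 10 (-1.60, -2.82 to -0.48). Of 27 channel genes, 17 reached the minimum, with 9 positive, 8 negative and a median of 0.04. Without mitochondrial and ribosomal genes in the total it was -0.05, where the median of all core genes with at least 50 UMIs was -0.02. Kcnj8 had 5 and 20 UMIs (1.67, 0.21 to 3.44) and Abcc9 4 and 17 (1.75, 0.14 to 3.78), with 41.2% of the latter in 1 cell. Piezo2, a mechanosensitive channel, had 12 UMIs in 3 cells and 71 in 9 (2.23, 1.34 to 3.25).

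Genes by which mural cells read the endothelium differed in both directions. Of 33, 22 had at least 20 UMIs in the core, 10 positive and 12 negative, with a median of -0.07, or 0.05 as a mean over cells. Nrarp, a feedback regulator induced by Notch signalling, had 72 UMIs in 40 core cells of the Cre- library and 27 in 17 cells of the other, a log2 ratio of -1.75 (-2.44 to -1.09). Hes1, another Notch target, had 535 and 464 UMIs (-0.54, -0.72 to -0.36), whereas Hey2 had 56 and 82 (0.22, -0.29 to 0.73) and Heyl 41 and 43 (-0.26, -0.92 to 0.39). Notch3 had a log2 ratio of 0.21 (-0.11 to 0.54) and Pdgfrb of 0.01 (-0.36 to 0.38), or 0.39 and -0.52 as a mean over cells. Id2, a target of BMP signalling, had 205 and 386 UMIs (0.58, 0.33 to 0.83). Flt1, a VEGF receptor better known from endothelium, had 2 UMIs in 2 cells and 41 in 11, with 43.9% of the latter in 1 cell. Of the 20 pericyte genes, 17 reached the minimum, with 6 positive, 11 negative and a median of -0.19. Cspg4 had 108 and 214 UMIs (0.65, 0.31 to 1.00), whereas Mcam, a cell adhesion molecule, had 188 and 159 (-0.58, -0.89 to -0.26) and Rgs4, another regulator of G-protein signalling, 121 and 87 (-0.81, -1.22 to -0.40).

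**Figure D3:**
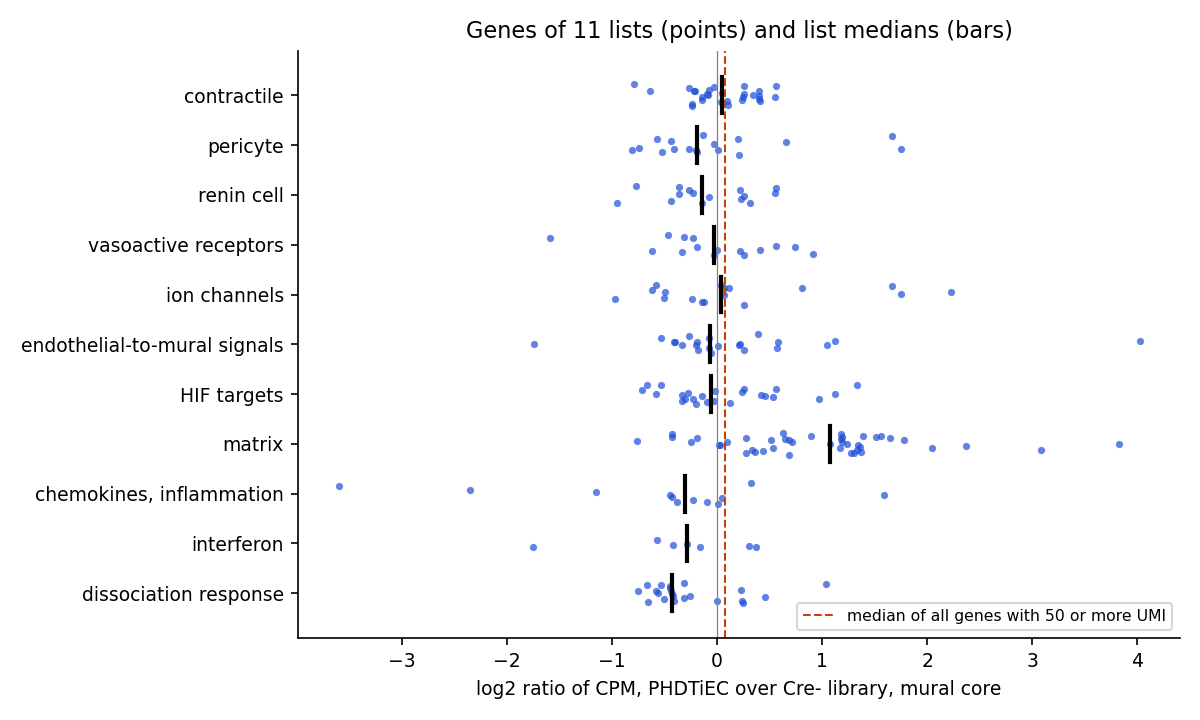
Each point is a gene with at least 20 UMIs in the mural core, placed by its log2 ratio of CPM (library labelled PHDTiEC over Cre-), each black bar is a list median and the dashed line is the median of all core genes with 50 or more UMIs, 0.07. The matrix list, with a median of 1.08, lies to the right of the other lists, and the dissociation response list lies at -0.43.

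HIF target genes were mostly higher in endothelial barcodes of the library labelled PHDTiEC, and in mural cells they were split between both directions. In the endothelial barcodes, 31 of 32 targets with at least 20 UMIs had a positive log2 ratio, with a median of 1.31 against 0.03 over all genes with at least 50 UMIs. In the mural core, 10 of 24 were positive and 14 negative with a median of -0.06 (0.11 as a mean over cells), and over all members 13 of 31 were positive with a median of -0.06. Bnip3, a mitophagy receptor, had 71 and 762 UMIs in endothelial barcodes (2.59, 2.24 to 2.97) but 10 and 10 in the core. Pgk1, a glycolytic enzyme, had 258 and 1235 UMIs (1.43, 1.23 to 1.63) and in the core 57 and 96 (0.42, -0.07 to 0.92). Adm, the vasodilator adrenomedullin, had 12 and 301 UMIs in endothelial barcodes and 0 and 1 in the core. Within the core, 3 of 24 intervals lay over 0 and 3 under it, against 10.1% and 5.76% of all core genes with at least 20 UMIs. Those over 0 included Higd1a (0.56, 0.23 to 0.89) and P4ha1, a collagen prolyl hydroxylase (0.97, 0.13 to 1.88). Those of Tpi1 (-0.54, -0.88 to -0.19), Cited2 (-0.72, -1.23 to -0.21) and Ddit4 (-0.59, -1.18 to -0.00063) lay under 0. No test of the difference between mural and endothelial cells was possible with 1 library each.

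The barcodes left out for carrying endothelial genes stood between these groups. In the mural barcodes with endothelial genes, 30 of 32 HIF targets were positive with a median of 0.89. Such barcodes can hold transcripts of both cell types, and which of them the HIF targets came from was not tested. Fibroblast and myeloid barcodes had medians of 0.0013 and 0.04.

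**Figure D4:**
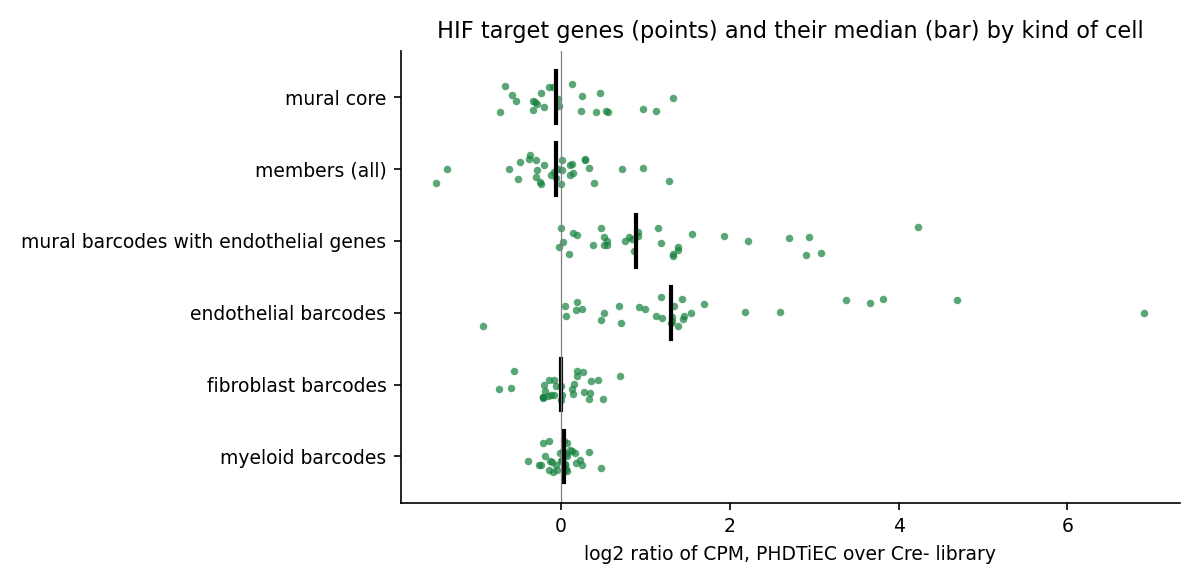
Each point is a HIF target gene with at least 20 UMIs in the kind of cell named on the y axis, placed by its log2 ratio of CPM (library labelled PHDTiEC over Cre-), with the median as a bar. The mural core and all members centre on -0.06, the endothelial barcodes on 1.31 and the mural barcodes with endothelial genes on 0.89.

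Matrix genes were mostly higher in members and core cells of the library labelled PHDTiEC. Of 46 genes, 43 had at least 20 UMIs in the core, and 38 were positive and 5 negative, with 31 intervals over 0 and 2 under it, against 10.1% and 5.76% of all core genes at that minimum. The other kinds of barcode differed in this list. The mural barcodes with endothelial genes had 23 of 42 matrix genes positive with a median of 0.09, the endothelial barcodes 30 of 41 with 0.29, the fibroblast barcodes 18 of 46 with -0.10 and the myeloid barcodes 37 of 45 with 0.60. These differences between kinds of barcode could not be tested with 1 library each. The median was 1.08 in the core, but 0.51 there as a mean over cells, and 1.13 over all members, and 20 of the 40 core genes with at least 50 UMIs were at least 2-fold higher, against 3.38% of all core genes. Col1a1, the alpha-1 chain of type I collagen (ENSMUSG00000001506, chromosome 11 of GRCm38 from 94936224 to 94953042), had 379 UMIs in 17 core cells and 1088 in 33, a log2 ratio of 1.19 (1.02 to 1.36). Col4a1, a basement membrane collagen (chromosome 8 from 11198423 to 11312826), had 376 UMIs in 80 cells and 1213 in 81 (1.36, 1.19 to 1.53). As a mean over cells, which weights deep and shallow cells equally, Col1a1 had 1.31 and Col4a1 0.68. Col1a1 was found in 16.0% and 30.8% of core cells, against 6.57% and 6.20% of myeloid barcodes, and Col4a1 in 75.5% and 75.7% against 19.9% and 21.8%. Fn1, fibronectin, had 172 and 641 UMIs (1.56, 1.32 to 1.82) and Ccn2, a matricellular protein induced by TGF-beta, 164 and 519 (1.33, 1.07 to 1.59). Lamb2, a laminin chain, had 178 and 166 UMIs (-0.43, -0.75 to -0.12) and Eln, elastin, 85 and 90 (-0.25, -0.69 to 0.19). Ccn1, an immediate early matricellular gene, had 379 and 281 (-0.76, -0.99 to -0.54).

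Tnc led the core genes by the rule for leading genes. It encodes tenascin-C, a matrix glycoprotein of healing and fibrotic tissue (chromosome 4 from 63959785 to 64047015, reverse strand). Only 3 of 106 core cells of the Cre- library carried it, with 9 UMIs and at most 5 per cell, against 20 of 107 in the other, with 161 UMIs and at most 47 per cell. Tnc was thus found in more cells of the library labelled PHDTiEC. The log2 ratio was 3.83 (2.87 to 4.98), and without the top cell of each library 4.50. The share of cells with a UMI was 2.83% (0.588 to 8.05) and 18.7% (11.8 to 27.4) in the core, against 2.18% and 3.02% in myeloid barcodes, so the Cre- value lay at the background. In the fibroblast barcodes (164 and 282, with at least 10 UMIs of Col1a1, Col1a2 and Dcn, at most 2 mural and 2 endothelial UMIs, and no Ptprc), Tnc had 374 and 291 CPM, and Col1a1 3016 and 2848 CPM, log2 ratios of -0.36 and -0.08. Whether mural and fibroblast barcodes differ in this could not be tested with 1 library each, and Col1a1 was used to choose the latter. In the myeloid barcodes Col1a1 had 13 and 65.1 CPM, a log2 ratio of 2.32, and in free RNA 107 and 130 CPM. Tnc had 25.5 and 36 CPM in free RNA, and the part of free RNA in these differences was not tested.

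Fibrillar collagen sat in few core cells of either library. Summed over Col1a1, Col1a2 and Col3a1, 62 core cells of the Cre- library and 50 of the other had no UMI, the median was 0 and 1.70 per 10000 UMIs, and the upper quartile 2.72 and 7.73. Cells with 50 or more per 10000 numbered 3 of 106 (2.83%, 0.588 to 8.05) and 8 of 107 (7.48%, 3.28 to 14.2), with overlapping intervals, and held 90.7% and 89.0% of the core collagen UMIs. The next lower cells stood at 25.1 and 37.9 per 10000. Over all members, such collagen-rich cells numbered 3 of 184 (1.63%, 0.338 to 4.69) and 14 of 191 (7.33%, 4.07 to 12). This limit was set after the values had been seen.

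The collagen-rich core cells had a median depth of 18292 and 17172.5 UMIs, and 1 of those labelled PHDTiEC lay in the renin range. Their median was 0 and 1.5 Rgs5 UMIs and 3 and 6 Myh11 UMIs. The member rule uses both genes, so these levels describe the choice. All 3 of the Cre- library and 4 of the 8 of the other carried Dcn, Pdgfra or Pi16, genes of fibroblasts. The 19 tubular markers made up 3.30 per 10000 UMIs of the collagen-rich core cells of Cre- and 48.4 of those of PHDTiEC (786 of the 1243 tubular UMIs of that core, median 2.11 and highest cell 191 per 10000), against 9.92 and 8.46 in the other core cells, whose median depth was 4508 and 4655 UMIs. In both libraries their leading genes against the other core cells included, beside the 3 fibrillar chains that chose them, Col15a1, Col5a2, Col8a1, Cxcl14 and Mgp, the matrix Gla protein that restrains calcification, which stood at 30852 and 25856 CPM against 2193 and 2319. Which kind of cell they are was not tested.

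The matrix median was smaller, but over 0, in the core cells under that limit. Without the collagen-rich cells (103 and 99 left), 33 of 38 matrix genes were positive, with a median of 0.60 against 0.07 over all genes with at least 20 UMIs. The 10 fibroblast markers were also higher in PHDTiEC in these cells, at 2.07 and 6.96 per 10000 UMIs pooled and a median of 0 and 1.67. Their part in the matrix median was not tested. Col4a1 had a log2 ratio of 1.43 there, or 0.87 without the top cell of each library, and Ccn2 had 1.24, or 0.98. Mgp went from 0.68 to 0.08. Col1a1 had 18 and 110 UMIs there (2.52), but the limit is set on Col1a1, Col1a2 and Col3a1, so their levels under it describe the choice. Tnc had 2 and 84 UMIs there, in 1 and 13 cells, with 56.0% of the latter in 1 cell. Among members with few tubular, fibroblast and myeloid UMIs, a limit that uses Col1a1 itself, the matrix median over all members was 0.20.

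**Figure D5:**
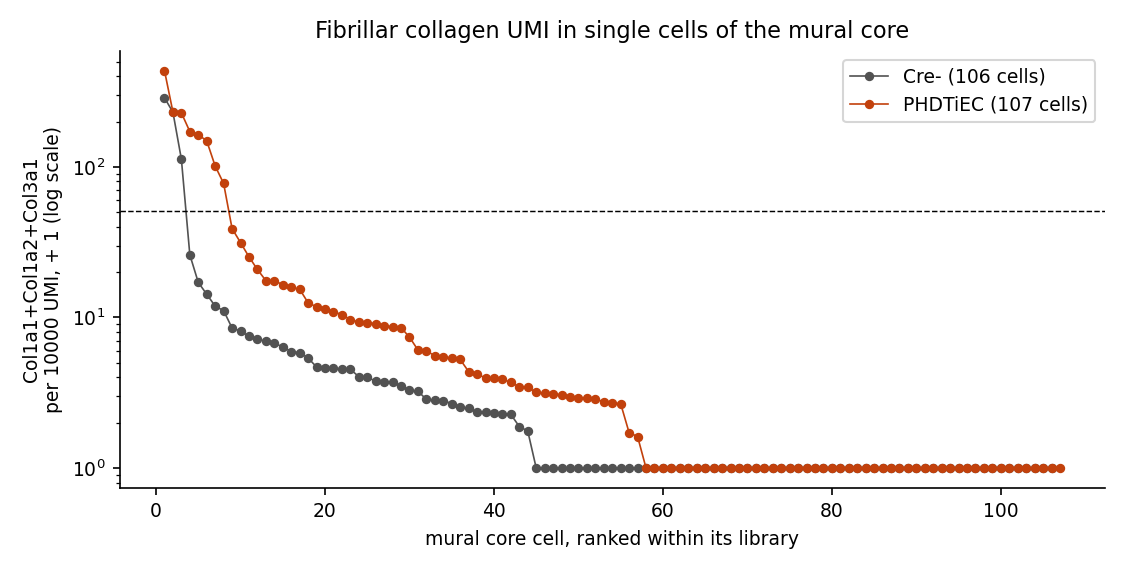
Core cells are ranked within their library on the x axis by Col1a1, Col1a2 and Col3a1 UMIs per 10000, plus 1, on a log y axis, with the dashed line at the limit of 50. A total of 3 Cre- and 8 PHDTiEC cells lie above the line, and 62 and 50 cells have no collagen UMI.

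Interferon-induced genes had different medians over all members and in the core, a contrast that was not tested. Over all members, 15 of 18 interferon-induced genes with at least 20 UMIs were positive. Their median was 0.73, against 0.05 over all 11609 genes at that minimum. They were led by Iigp1 (21 and 159 UMIs) and Gbp2 (83 and 290), both interferon-induced GTPases, with 59.7% and 62.4% of the PHDTiEC UMIs in 1 cell each. Of these UMIs, 7 and 131 of Iigp1 and 65 and 259 of Gbp2 came from the low-contractile members, and the core held 6 and 4 of Iigp1 and 5 and 8 of Gbp2. In the core, 7 interferon genes reached 20 UMIs, 2 positive and 5 negative. Their median was -0.29, against 0.08 over all core genes at that minimum. Isg15 had 51 and 19 UMIs (-1.76, -2.60 to -0.97). Ccl2, the monocyte chemoattractant, had 29 and 3 UMIs in the core, with 86.2% of the Cre- UMIs in 1 cell, and Vcam1 61 and 15, with 70.5% in 1 cell. Socs3, induced by cytokine signalling, had 241 and 222 (-0.45, -0.72 to -0.18).

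Immediate early and heat shock genes, which respond to tissue dissociation, were mostly lower in the library labelled PHDTiEC. Of 22, 17 were negative and 5 positive in the core, with a median of -0.43, 15 intervals under 0 and 4 over it, against 5.76% and 10.1% of all core genes with at least 20 UMIs. The median was -0.19 in the core as a mean over cells and -0.10 over all members. Nr4a1 had 744 and 592 UMIs (-0.66, -0.82 to -0.51) and Fos 3391 and 3005 (-0.51, -0.58 to -0.44), while Hspa1b, a heat shock protein, had 22 and 57 (1.04, 0.31 to 1.82). The median of the same list was -0.13 in the mural barcodes with endothelial genes (16 of 22 negative), -0.05 in endothelial, -0.02 in fibroblast and 0.10 in myeloid barcodes. Their part in the lower levels of Akr1b7, Rasl11a and Ccn1 was not tested.

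By the rule for leading genes, all members and the core had Tnc as their 1 common name. Of 9334 genes with at least 50 UMIs over all members, 236 (2.53%) were at least 2-fold higher and 126 (1.35%) at least 2-fold lower in the library labelled PHDTiEC. The lowest ratios among genes with at least 100 UMIs were those of Slc12a3, the thiazide-sensitive transporter of the distal tubule (275 and 9 UMIs, -5.05), Mmp7, Car15, Ppp1r1a, Il1b, Irx1, Sprr1a, Eprn, Sfrp1 and C1qa. The highest were those of Tnc, Spon1, Igfbp2, Fbp1, Aqp2, Fbln2, Slc34a1, Piezo2, Col12a1 and 1600027J07Rik. Tubular and myeloid genes stand among these names. Of the Slc12a3 UMIs, 3 and 3 lay in the core, and of the 93 and 473 UMIs of Slc34a1, the phosphate transporter of the proximal tubule, 7 and 6, which the choice of the core fixes, since Slc34a1 is one of its 6 tubular genes. Tnc (9 and 161), Piezo2 (12 and 71) and Col12a1 (33 and 162 UMIs, 51.9% of the latter in 1 cell), a fibril-associated collagen, differed within it.

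In the core, the highest ratios belonged to Tnc, Myh9, Fam129a, Loxl2, Cdh11, F2r, Col8a1, Inhba, Col6a1 and Ccdc80. Myh9, non-muscle myosin, had 41 UMIs in 25 cells and 279 in 44 (2.43, 1.96 to 2.94). Loxl2, a lysyl oxidase that cross-links collagen, had 23 UMIs in 4 cells and 120 in 17 (2.05, 1.40 to 2.76), which is 3.77% and 15.9% of core cells against 3.77% and 5.05% of myeloid barcodes, so the Cre- share lay at the background. Cdh11, a cadherin of mesenchymal cells, had 36 and 182 UMIs (2.00, 1.48 to 2.56), and Inhba, the activin A subunit, 46 and 191 (1.72, 1.25 to 2.22) in 31 and 33 cells, with 28.3% of the latter UMIs in 1 cell. As a mean over cells, Inhba had 0.72 and Ccdc80 0.75, under 2-fold, while Myh9 had 1.86, Loxl2 1.97 and Cdh11 1.27. The lowest belonged to Rasl11a, AY036118, Mylip, Gm42418, Cdkn1a, 9530034E10Rik, Cd82, Txndc11, Ier5 and Rrad. Rasl11a, a Ras-like protein, had 638 UMIs in 72 cells and 305 in 58 (-1.40, -1.60 to -1.20), and Cdkn1a, the p21 cell cycle inhibitor, 276 and 157 (-1.15, -1.44 to -0.86), although over all members the log2 ratio was -0.39 for Rasl11a and 0.11 for Cdkn1a. As a mean over core cells, Rasl11a had -0.98 and Cdkn1a -0.71, short of 2-fold. AY036118 and Gm42418 are transcripts associated with ribosomal RNA, and the latter took 12038 and 5336 CPM of the core.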

How the data were processed

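Single-cell libraries of 2 postischemic kidneys, 1 per genotype, were made with the 10X Genomics Chromium 3′ kit. The authors aligned reads to mm10 with Cell Ranger (version 4 in the file headers) and deposited raw UMI counts for every gene and barcode, unfiltered and not normalized. The hashing library named in the protocol was not used here. The cell filters and the member rule are those given above, and no doublet caller was run. For each set of cells, UMIs were summed per gene and divided by the total to give CPM. Differences are log2 ratios with Clopper-Pearson intervals on the split of UMIs between libraries. List genes entered with at least 20 UMIs over both libraries, calls of 2-fold with at least 50, and leading genes with at least 100. Leading genes are the 10 highest and 10 lowest ratios without mitochondrial, ribosomal protein, haemoglobin, Xist and Y-linked genes, and without genes with over 50% of the UMIs of the higher library in 1 cell (6 passed over among members, 4 in the core). For ranges, the leading genes are those with at least 100 UMIs in the range and the largest smaller log2 ratio of both libraries. Of a symbol on several identifiers, the one with more UMIs was used. The members, lists and rules were chosen with earlier results of these data known, and the mural core and the collagen limit were set after the values were seen. Gene positions are from GENCODE vM21 (32158 of 32285 identifiers matched). Single values of some genes are not reported here. The alternatives were other cell and gene limits, other scalings (edgeR 4.0.16), an ambient profile scaled by tubular markers to 5.17% and 4.56% of the UMIs, and thinning. The scripts used Python 3.11.15, scipy 1.17.1 and R 4.3.3. Only the log2 ratio and its interval were tested on simulated data, which were summed UMIs without differences between cells.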

Additional observations from a re-analysis of the deposited data

How the results depend on the processing

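No paired analysis was possible because each genotype has 1 library, and no replicate could be left out. The alternatives called few tubular UMI, the mural core and those without collagen-rich members were chosen after seeing the data. The renin share stayed within its main interval in both libraries under every alternative run. The member share, 2.17% and 2.07%, moved to 1.63% and 1.59% with 6 or more Rgs5 and Myh11 UMIs, to 1.71% and 1.68% with a further limit of 3 per 10000 UMIs, to 1.02% and 0.780% with few tubular, fibroblast and myeloid UMIs, and to 1.31% and 1.22% with few tubular UMIs only. The contractile share moved to 69.6% and 70.7%, to 72.4% (Cre- only), to 76.7% and 72.2%, and to 78.4% and 74.3% under the same settings in turn. The count of genes 2-fold higher, 236, became 154 (3 per 10000), 21 (few tubular, fibroblast and myeloid UMIs), 131 (few tubular UMIs only), 122 (core), 61 (core without collagen-rich members), 378 (mean over cells), 1035 (1 UMI in each library) and 67 (at least 200 UMIs). The count 2-fold lower, 126, became 11, 26, 28, 15, 204, 1004 and 29 under all of these but the first. The number of genes tested also differed, from 2109 (few tubular, fibroblast and myeloid UMIs) to 15077 (1 UMI in each library), so these counts are not shares. Higher genes were 2.53% of 9334 over all members and 3.38% of 3611 in the core, and lower genes 1.35% and 0.775%. The contractile median, 0.44, became 0.043 (few tubular UMIs only), 0.045 (core), 0.18 (core without collagen-rich members) and 0.23 (mean over cells). The matrix median, 1.13, became 0.20 (few tubular, fibroblast and myeloid UMIs), 0.71 and 0.60 (without collagen-rich members, in all members and in the core) and 0.53 (mean over cells). That limit on fibroblast UMIs uses Col1a1 itself and removes cells by a matrix gene. Under it Col12a1 had a log2 ratio of -0.37, and without collagen-rich members Postn had -0.049, both turned from positive. Ren1, -0.53 over all members, was 0.10 with few tubular, fibroblast and myeloid UMIs, and Mgp, positive over all members, was -0.35 without collagen-rich members. In 72 cases a named gene had under 20 UMIs or no value and was given none. 

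A count of 0 in 106 core cells allows a share of cells with a UMI of up to 2.83% (3 counts of the total), which is no limit on the cells that express the gene. The differences between libraries cannot be told apart from those between mice, dissociations or days of preparation.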
